A study of Rattus norvegicus with 4 samples.

Results

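The genes described are 6 S100 genes (S100a4, S100a6, S100a8, S100a9, S100a10 and S100a11) and 4 annexin genes (Anxa1, Anxa2, Anxa3 and Anxa5) in CA3, a field of pyramidal neurons in the hippocampus, of Sprague-Dawley rats. They were listed by name, with earlier results of these data known. Each was taken from the array probe sets whose annotation gave that symbol alone. This gave 14 probe sets for 10 genes, among 14217 singly named genes in all, and each gene took the value of its brightest probe set by the mean over the arrays. For Anxa3 the other probe sets differ in sign among themselves, as given below, so its place in the counts rests on the brightest one alone. The rats had received an injection into the hippocampus of PBS (phosphate-buffered saline, the vehicle), of kainic acid (KA, an excitotoxin that activates kainate receptors and injures CA3 neurons), of KA together with NAP (a short neuroprotective peptide derived from activity-dependent neuroprotective protein, ADNP), or of NAP alone. CA3 tissue was taken after 24 h. No group went without an injection, so the controls also had their tissue pierced. Each group had 1 array, and the labels do not say whether its RNA came from 1 animal or from a pool. No value below therefore has a replicate error, no difference was tested, and a difference of at least 2-fold is a fixed rule of size.

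S100 proteins are small calcium-binding proteins that usually work as dimers. Some of them are released from cells, where S100A8 and S100A9 act as alarm signals through the receptors TLR4 and RAGE. Annexins bind acidic phospholipids of membranes when calcium is present, and several of them pair with an S100 protein, the best known pair being S100A10 with annexin A2. In the injured brain these genes are known from reactive astrocytes, activated microglia, blood-derived myeloid cells, vessels and meninges.

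All 10 genes had a higher intensity on both arrays with KA than on both arrays without it, a pattern found in 32.3% of the 9489 genes past the intensity filter. The filter kept genes whose mean intensity over the 4 arrays exceeded 62.75, the median of all probe sets. Because the 10 genes were chosen with earlier results of these data known, their counts beside the shares of all genes are a description only. In KA minus PBS, 8 of the 10 reached 2-fold higher, against 4.91% of all genes, and none was 2-fold lower, against 2.39%. In KA+NAP minus NAP, the same 8 genes were at least 2-fold higher, against 5.67% of all genes, and none was 2-fold lower, against 2.41%. These 2 comparisons share no array, and 3.13% of all genes were at least 2-fold higher in both. The PBS and KA arrays also differed in the haemoglobin gene Hbb (5 and 186), and the NAP and KA+NAP arrays less so (1430 and 1549). With 1 array per group, KA cannot be told apart from the animals, blood in the tissue or dissection in either comparison. Anxa3 and Anxa5 were the 2 genes below 2-fold in each comparison. Differences are of log2(intensity + 10). Their median over the 10 genes was 1.44 in KA minus PBS and 1.86 in KA+NAP minus NAP, beside medians over all genes of 0.03 in both. The choice of the array without KA mattered. Set against the NAP array, the KA array was at least 2-fold higher in 3 of the 10 genes (S100a4, S100a10 and Anxa2), against 3.19% of all genes. Set against the PBS array, the KA+NAP array was at least 2-fold higher in 9 of the 10, all but Anxa3, against 7.42% of all genes, with a median of 2.61.

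The level in all 10 genes was lowest with PBS, next with NAP, next with KA and highest with KA+NAP. That order held for 13.1% of all genes past the filter. It was noticed in these values, and neighbouring steps in it were small in places. With a single array per group, no step can be set against a replicate spread.

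**Figure D1:**
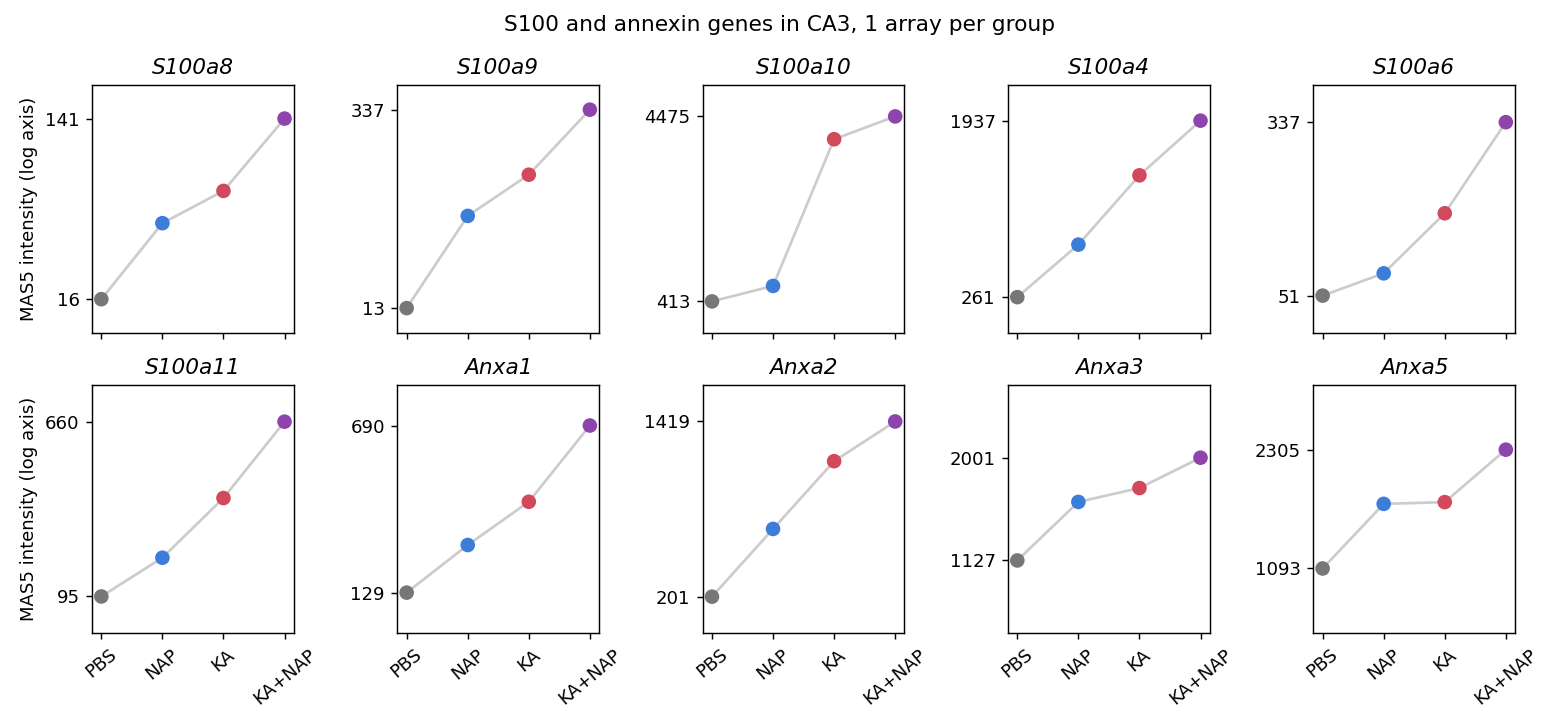
MAS5 intensity (log axis, scaled separately for each gene) of the brightest probe set of each gene on the PBS, NAP, KA and KA+NAP arrays, 1 array per group, with grey lines only joining the points. Each gene is lowest on the PBS array and highest on the KA+NAP array, from 413 to 4475 for S100a10 and from 1093 to 2305 for Anxa5.

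S100a8 and S100a9 encode the subunits of calprotectin, an abundant cytosolic protein of neutrophils and monocytes. S100a9 had an intensity of 13 with PBS, 59 with NAP, 116 with KA and 337 with KA+NAP. Its log2 difference was 2.45 in KA minus PBS (5.48-fold) and 2.33 in KA+NAP minus NAP (5.03-fold). S100a9 was dim without KA and also differed by 1.58 between the NAP and PBS arrays, so that KA minus NAP was 0.87. The partner S100a8 had an intensity of 16 with PBS, 40 with NAP, 59 with KA and 141 with KA+NAP. It differed by 1.41 in KA minus PBS and by 1.59 in KA+NAP minus NAP, but the NAP and KA arrays were only 0.46 apart. Both genes passed the filter through their KA intensities, as did S100a6. With the filter applied to the PBS and NAP arrays alone, 7 genes remained, of which 5 were at least 2-fold higher in both KA comparisons, against 2.13% of all genes.

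S100a10 encodes p11, which binds annexin A2 at the plasma membrane, holds plasminogen and tissue plasminogen activator at the cell surface, and lacks the calcium response of its relatives. Its intensity was 413 with PBS, 504 with NAP, 3335 with KA and 4475 with KA+NAP. Here the arrays fell into a high pair and a low pair. The KA difference was 2.98 without NAP (7.91-fold) and 3.12 with it (8.73-fold), rank 29 and rank 12 of the 9489 genes counted from the highest. S100a10 had the largest KA difference of the 10 genes in both comparisons, and the smallest difference of the 10 in NAP minus PBS, at 0.28. It stayed high against either array without KA, with KA minus NAP at 2.70.

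S100a4, S100a6 and S100a11 encode intracellular S100 proteins that bind cytoskeletal proteins and annexins. S100a4, whose product binds the heavy chain of non-muscle myosin, had an intensity of 261 with PBS, 474 with NAP, 1041 with KA and 1937 with KA+NAP. Its KA difference was nearly the same without NAP (1.96) and with it (2.01). S100a11, whose product pairs with annexin A1, had an intensity of 95 with PBS, 146 with NAP, 283 with KA and 660 with KA+NAP. The difference was 1.48 without and 2.10 with NAP. S100a6 (calcyclin) had an intensity of 51 with PBS, 65 with NAP, 125 with KA and 337 with KA+NAP. It showed the widest gap of the 10 genes between its KA differences, 1.15 without and 2.21 with NAP, which is 1.06 on the log2 scale. Over the 10 genes that gap had a median of 0.10 and was above 0 in 6, against 50.2% of all genes.

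Anxa2 encodes the annexin that pairs with p11. It had an intensity of 201 with PBS, 428 with NAP, 911 with KA and 1419 with KA+NAP. The KA difference was 2.13 without NAP and 1.71 with it. Unlike its partner S100a10, Anxa2 differed by 1.05 between the NAP and PBS arrays. A second probe set annotated to Anxa2 was near 0 on every array (6 with PBS, 8 with NAP, 2 with KA and 0 with KA+NAP), so it gives no comparison. Anxa1, which encodes an anti-inflammatory, glucocorticoid-regulated ligand of formyl peptide receptors, had an intensity of 129 with PBS, 208 with NAP, 321 with KA and 690 with KA+NAP. Its KA difference was 1.25 without and 1.68 with NAP.

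Anxa5 and Anxa3 were less far apart between arrays. Anxa5, known as a probe for phosphatidylserine on dying cells, had an intensity of 1093 with PBS, 1640 with NAP, 1658 with KA and 2305 with KA+NAP. Its NAP and KA arrays were level, 0.02 apart on the log2 scale, and the KA differences were 0.60 without and 0.49 with NAP. Anxa3, an annexin found in phagocytes and activated microglia, had an intensity of 1127 with PBS, 1563 with NAP, 1689 with KA and 2001 with KA+NAP. Its KA differences were 0.58 and 0.35. The other 3 probe sets annotated to Anxa3 disagreed in sign, with KA minus PBS at 0.32, -0.26 and -0.55, the last of them dim at a mean intensity of 22.75. The direction of Anxa3 is therefore that of its brightest probe set and of the one at 0.32 only. The mean over its probe sets was 0.02 in KA minus PBS. The remaining 8 genes had 1 probe set each.

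By their labels, the arrays of KA+NAP and KA differ by the peptide in tissue that both times received the toxin. They also differed in the haemoglobin gene Hbb (186 with KA and 1549 with KA+NAP). With 1 array per group, the peptide cannot be told apart from the animals, blood in the tissue or dissection. All 10 genes were higher on the KA+NAP array, as were 53.8% of all genes. The 5 genes at least 2-fold higher were S100a9 (1.46), S100a6 (1.36), S100a11 (1.19), S100a8 (1.13) and Anxa1 (1.08), against 1.52% of all genes. S100a6, S100a8 and S100a9 passed the filter only through the KA arrays, and with the filter on the PBS and NAP arrays 2 of 7 genes (S100a11 and Anxa1) reached 2-fold, against 1.22% of all genes. With a pseudocount of 50, 3 of the 10 did. None was 2-fold lower, against 0.601%. The median over the 10 genes was 0.98, beside 0.03 over all genes. S100a4 was at 0.89, Anxa2 at 0.63, Anxa5 at 0.47, S100a10 at 0.42 and Anxa3 at 0.24. The S100 genes had a median of 1.16 and the annexins 0.55.

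By their labels, the NAP and PBS arrays differ by the peptide without the toxin. They also differed in Hbb (5 with PBS and 1430 with NAP) and in the sum of meningeal and fibroblast markers (2019 and 3423). The peptide cannot be told apart from the animals, blood or dissection here either. Here too all 10 genes were higher, as were 54.0% of all genes, with a median of 0.61 beside 0.02 over all genes. The median was below that of KA+NAP minus KA, although S100a9, Anxa2, Anxa3 and Anxa5 differed more here. S100a9 (1.58) and Anxa2 (1.05) were at least 2-fold higher, against 1.05% of all genes, and none was 2-fold lower, against 0.242%. Neither gene reached 2-fold with a pseudocount of 50 (0.79 and 0.93). Anxa2 also fell short with centred arrays (0.99) and with the mean over its probe sets (0.61), and S100a9 passed the filter only through the KA arrays. This comparison shares the PBS array with the first KA comparison and the NAP array with the second. The difference of KA+NAP and KA likewise shares an array with each, so the values of different comparisons are not independent of each other.

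Levels of other cell markers differed between the same arrays, and in bulk tissue more cells of a type and more RNA per cell cannot be told apart. Of 11 monocyte and macrophage markers listed, 10 were on the array. Their summed intensity was 2128 with PBS, 4920 with NAP, 4929 with KA and 9807 with KA+NAP. That sum was highest on the KA+NAP array and lowest on the PBS array, as were the 10 genes. The macrophage lysozyme gene Lyz2 carried much of it, with 1410 with PBS, 3483 with NAP, 2757 with KA and 5292 with KA+NAP. Next came the fibronectin gene Fn1, with 290, 683, 994 and 2274 in the same order of arrays. In KA minus PBS 4 of the 10 markers were at least 2-fold higher, against 5.35% of all genes with no intensity filter. None of the markers was 2-fold lower, against 3.19%, but not all lay above 0. The scavenger receptors Mrc1 and Cd163 were at -0.71 and -0.51, and the integrin Itgam at 0.13. The lysosomal marker Cd68 had an intensity of 24 with PBS, 69 with NAP, 74 with KA and 244 with KA+NAP, and the monocyte chemokine receptor Ccr2 stayed between 2 and 22. Of 12 neutrophil markers, 7 were on the array, with a summed intensity of 206 with PBS, 838 with NAP, 436 with KA and 1095 with KA+NAP. Lcn2 (lipocalin 2), which reactive astrocytes also make, contributed 101, 743, 144 and 852 of these in the same order of arrays. Mmp9, a protease that other cells also make, was the other neutrophil-list gene past the filter, with 39 with PBS, 36 with NAP, 233 with KA and 159 with KA+NAP. The remaining neutrophil markers were near 0 or dim on every array, with Camp between 1 and 4, Cxcr2 between 2 and 15, Mmp8 between 1 and 16 and Csf3r between 28 and 44. The haemoglobin gene Hbb, a sign of blood in the tissue, had an intensity of 5 with PBS, 1430 with NAP, 186 with KA and 1549 with KA+NAP. Its probe set can also bind related globin transcripts. The part of these cells and of blood in the S100 and annexin levels was not tested.

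The sums of other lists ordered the arrays differently. The 10 meningeal and fibroblast markers had their highest sum on the NAP array (3423) and lower sums with PBS (2019), KA (1601) and KA+NAP (2050). The 7 microglia markers on the array had sums of 2400 with PBS, 2165 with NAP, 1109 with KA and 1866 with KA+NAP. P2ry12 carried much of this, with 1071, 773, 232 and 368 in that order. P2ry12, Tmem119 and Gpr34 were highest on the PBS array, but Aif1, Csf1r, Cx3cr1 and Sall1 on the KA+NAP array. The sums of 7 endothelial markers were 2270, 3048, 2227 and 2931 in the same order. Of these, Kdr and Emcn had the order of arrays of the 10 genes, and the others did not. The sum of 8 astrocyte markers lay between 26273 and 32618, and its members differed in direction. The reactive astrocyte gene Gfap had an intensity of 5744 with PBS, 8065 with NAP, 8147 with KA and 9776 with KA+NAP, the same order of arrays as the 10 genes. The astrocyte genes Gjb6 (-2.78 and -2.38), Aldoc (-1.06 and -0.89) and Gja1 (-0.69 and -0.40) were lower in both KA comparisons. The part of reactive astrocytes in the S100 and annexin levels was not tested. The 10 neuron markers and the 10 excitatory neuron and CA3 markers all passed the filter, and both sums were lower on the KA arrays. The CA3 list summed to 9098 with PBS, 7996 with NAP, 5931 with KA and 5360 with KA+NAP. The sum of 7 oligodendrocyte markers lay between 19576 and 21532, and that of 7 choroid plexus and ependymal markers between 1097 (KA+NAP) and 1804 (NAP). None of these markers was at 0 on any array.

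**Figure D2:**
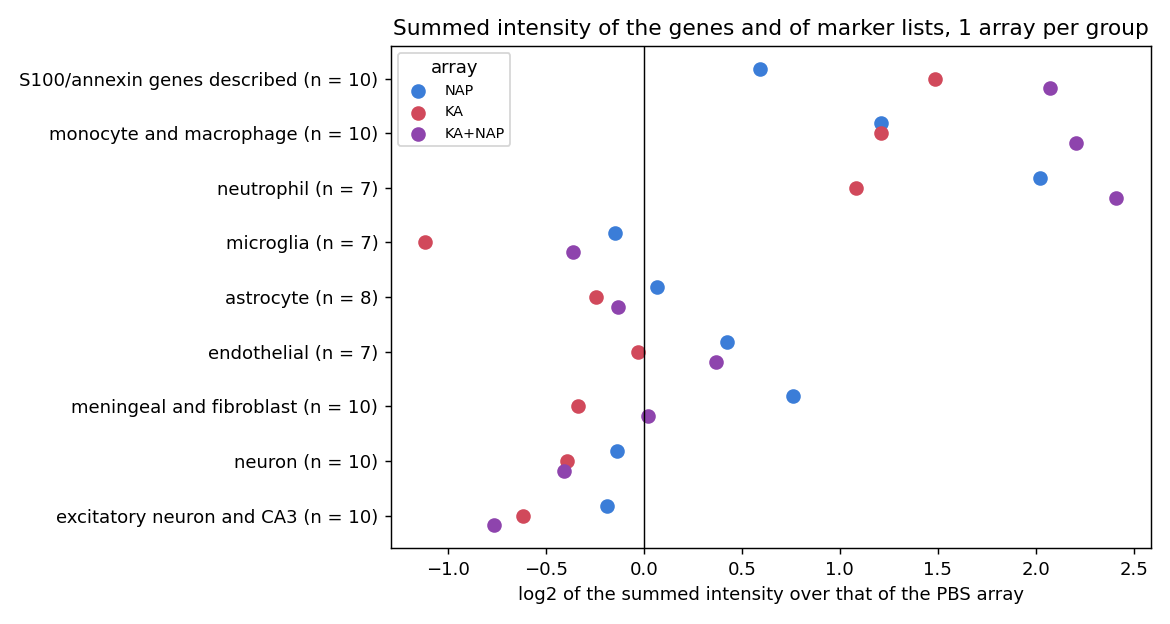
Log2 of the summed intensity on the NAP, KA and KA+NAP arrays over that of the PBS array, for the 10 S100 and annexin genes and for 8 lists of cell type markers (n, genes on the array), 1 array per group. The sum over the 10 genes went from 3399 with PBS to 5127 with NAP, 9538 with KA and 14302 with KA+NAP, and the sum over monocyte and macrophage markers from 2128 to 9807 between PBS and KA+NAP, whereas the CA3 sum was lowest with KA+NAP.

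Not every S100 or annexin gene was high with KA. Of 9 other listed S100 genes on the array, 5 passed the filter, and S100a3 was the 1 gene at least 2-fold higher in either KA comparison. Its intensity was 56 with PBS, 120 with NAP, 470 with KA and 383 with KA+NAP. S100a3 thus differed by 2.86 in KA minus PBS and by 1.60 in KA+NAP minus NAP, and it was lower, not higher, with KA+NAP than with KA (-0.29). S100b, the astrocyte S100 gene used as a marker of brain injury in blood, had an intensity of 6782 with PBS, 5693 with NAP, 5161 with KA and 5224 with KA+NAP. It was lower on both KA arrays, by amounts within 2-fold (-0.39 and -0.12). S100a13, whose product helps to export proteins without a signal peptide, was at -0.95 and -0.50, and S100a1 at -0.59 and -0.26. S100a16 was at 0.07 and 0.21.

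Among the 6 other annexins on the array, Anxa4 stood at the 2-fold limit. Its intensity was 278 with PBS, 389 with NAP, 566 with KA and 789 with KA+NAP, in the same order of arrays as the 10 genes. It was exactly 2-fold higher in KA minus PBS and 1.002 higher on the log2 scale in KA+NAP minus NAP, and its second probe set was at 1.23 in the first and also exactly 2-fold in the second. Anxa6, a large annexin with a doubled core, was lower on the KA arrays (-0.82 and -0.37), and Anxa11 was at -0.09 and -0.19. Anxa7 was at 0.86 and 0.70, but its second probe set was at -0.50 and -0.02. Anxa8 was dim, between 13 and 41, and its 1.15 in KA+NAP minus NAP came from a low NAP array, since KA minus PBS was 0.06. With dim genes included, the other S100 genes had a median of -0.05 in KA minus PBS and the other annexins -0.01.

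**Figure D3:**
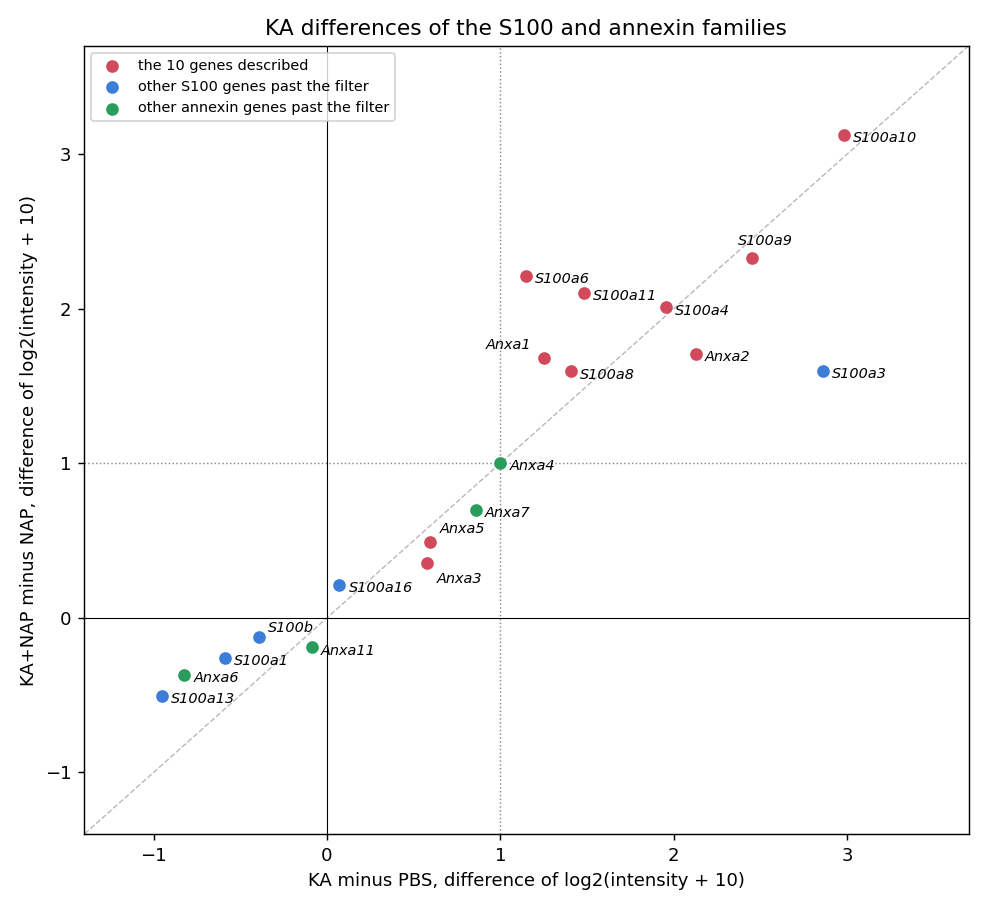
KA minus PBS (horizontal) against KA+NAP minus NAP (vertical), each a difference of log2(intensity + 10), for the 10 S100 and annexin genes described and the 9 other family genes past the filter. Dotted lines mark 2-fold and the dashed line equal differences, 1 array per group. S100a10 lies highest at 2.98 and 3.12, Anxa3 and Anxa5 lie inside 2-fold with Anxa7, and S100a13, S100a1, S100b, Anxa6 and Anxa11 lie below 0.

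Most S100 genes lie side by side on rat chromosome 2. In the order of the RefSeq table (assembly GRCr8), S100a3, S100a4, S100a5, S100a6, S100a7a, S100a8 and S100a9 are consecutive protein-coding genes. S100a3, S100a4, S100a6, S100a8 and S100a9 were each at least 2-fold higher in both KA comparisons, and 3 of them (S100a6, S100a8 and S100a9) passed the filter only through their KA arrays. S100a5, which lies between S100a4 and S100a6, had intensities between 3 and 6 on every array, so no difference can be read for it. S100a7a had no probe set named for it alone, so it has no value. The 4 genes on the other side of S100a3, which are S100a1, S100a13, S100a14 and S100a16, had KA differences between -0.95 and 0.21, and S100a14 among them was dim. Among the genes past the filter, high and low ones were thus not interspersed. S100a16 adjoins S100a3, so the division between them follows the levels seen and not a gap in the gene order. S100a7l2 and S100vp, which lie beyond S100a9, had intensities between 0 and 9, so no difference can be read for them. S100a10 and S100a11 lie outside the run.

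**Figure D4:**
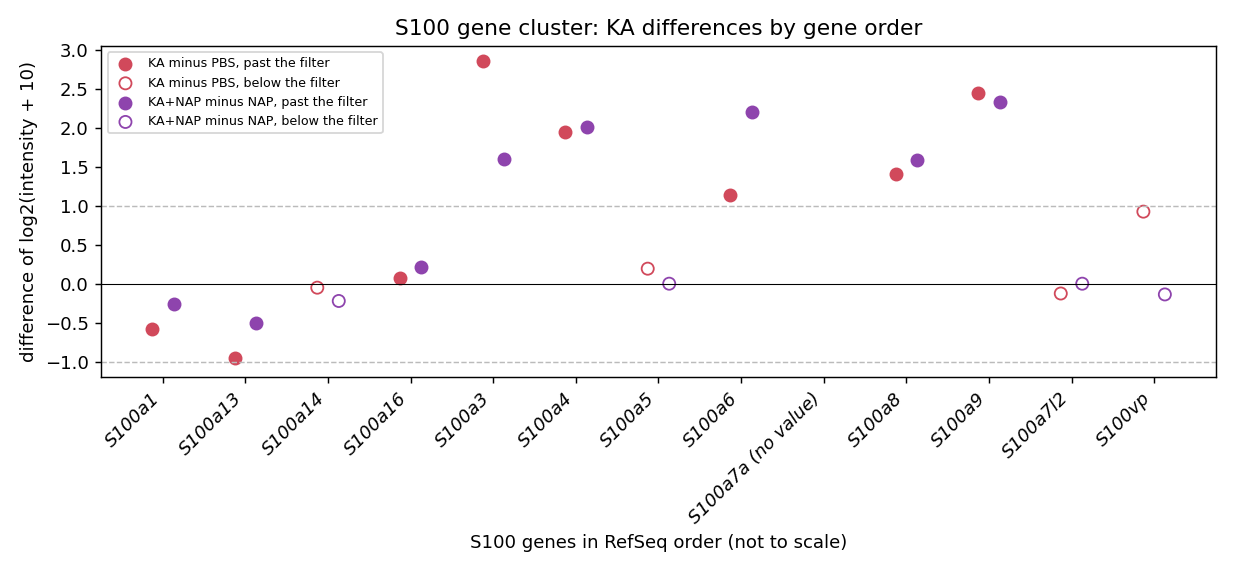
Difference of log2(intensity + 10) in KA minus PBS and in KA+NAP minus NAP for the S100 genes from S100a1 to S100vp on rat chromosome 2, placed in RefSeq gene order and not to scale, with open circles for genes below the intensity filter and dashed lines at 2-fold, 1 array per group. S100a10 and S100a11 are not plotted. S100a3, S100a4, S100a6, S100a8 and S100a9 lie above 2-fold in both comparisons, and S100a1, S100a13 and S100a16 between -0.95 and 0.21.

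Promoters of the genes were read from RefSeq (GRCr8) to set their letters beside the levels, and 8 of the 10 genes matched, all but S100a8 and S100a10. The window searched ran from 250 bases before to 50 bases after the annotated start. Shown are the 160 bases before the start for the genes with a motif match. These are 4 genes that were at least 2-fold higher in both KA comparisons and Anxa5, which was not. The promoters of S100a6, S100a11 and Anxa3 held no match and are not shown. Capitals mark matches, on either strand, to a TATA box (TATAAA), an AP-1 site (TGANTCA), a C/EBP-type site (TTGCNNAA) or an NF-kB-type site.
S100a4, chr2:178388369-178388528, plus strand: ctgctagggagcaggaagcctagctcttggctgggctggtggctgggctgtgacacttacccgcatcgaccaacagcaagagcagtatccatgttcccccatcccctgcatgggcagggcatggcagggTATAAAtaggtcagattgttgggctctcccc
S100a9, chr2:178490623-178490782, minus strand: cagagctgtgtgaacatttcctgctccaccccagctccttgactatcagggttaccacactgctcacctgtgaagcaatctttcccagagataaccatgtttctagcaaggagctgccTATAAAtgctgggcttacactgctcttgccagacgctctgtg
Anxa1, chr1:227303733-227303892, minus strand: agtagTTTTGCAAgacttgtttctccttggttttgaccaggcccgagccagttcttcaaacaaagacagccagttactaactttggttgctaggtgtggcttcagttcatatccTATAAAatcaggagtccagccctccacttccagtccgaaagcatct
Anxa2, chr8:78986092-78986251, plus strand: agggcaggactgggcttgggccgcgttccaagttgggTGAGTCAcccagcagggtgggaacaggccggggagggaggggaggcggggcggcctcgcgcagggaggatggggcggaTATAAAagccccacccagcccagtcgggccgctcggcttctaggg
Anxa5, chr2:121272697-121272856, minus strand: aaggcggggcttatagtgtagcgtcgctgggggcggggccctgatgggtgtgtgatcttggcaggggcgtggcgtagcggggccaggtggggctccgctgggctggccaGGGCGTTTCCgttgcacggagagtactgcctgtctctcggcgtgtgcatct

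TATAAA occurred in 4 of the 8 matched promoters, those of S100a4 (-31 to -26 from the start), S100a9 (-42 to -37), Anxa1 (-46 to -41) and Anxa2 (-45 to -40), and in 14.3% of 27457 rat promoters of the same length. None of the motif matches in these promoters overlapped another. Anxa3 and Anxa5, the genes below 2-fold, had no TATAAA in the window, and neither did S100a6 and S100a11. AP-1 proteins are the FOS and JUN factors induced by seizures. An AP-1 match was present in 1 of the 8 promoters, that of Anxa2 (TGAGTCA, -123 to -117), and in 7.33% of all promoters. The C/EBP-type letters occurred in Anxa1 (-155 to -148) and in 10.5% of all promoters, the NF-kB-type letters in Anxa5 (-51 to -42) and in 1.51%, and a STAT site (TTCNNNGAA) in none of the 8 and in 8.68%. Of 241 genes at least 2-fold higher in both KA comparisons that had a promoter in the table, 11.2% held TATAAA, 8.71% an AP-1 match, 10.4% a C/EBP-type, 7.05% a STAT and 1.66% an NF-kB-type match. The corresponding shares of the 7697 other genes past the filter were 6.11%, 4.26%, 7.85%, 6.43% and 1.52%. S100a4, S100a9, Anxa1 and Anxa2, which hold TATAAA, themselves meet the definition of the 241. The filter includes the KA arrays, with which 297 genes were 2-fold higher in both, against 199 with the filter on the PBS and NAP arrays. The shares are therefore a description only. A match is a description of letters and shows no binding.

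Receptors and partners of these proteins gave a mixed picture. Of 16 listed, 13 were on the array. In KA minus PBS 4 of these were at least 2-fold higher, against 5.35% of all genes with no intensity filter. In KA+NAP minus NAP 5 were, against 6.36%. None was 2-fold lower in either, against 3.19% and 3.09%. Dysf and Plaur among the 4, and Dysf, Plaur and Cd36 among the 5, were below the filter. Plasminogen and its activators, some of which the p11 and annexin A2 pair binds, were only in part among the higher genes. By their brightest probe sets, Plau and Plaur were at least 2-fold higher in both comparisons, Plat in KA minus PBS only and Plg in neither. Plau (urokinase) had an intensity of 25 with PBS, 31 with NAP, 218 with KA and 220 with KA+NAP, a high pair and a low pair as for S100a10, with differences of 2.70 and 2.49. Plau passed the filter only through its KA arrays. Its second, dimmer probe set was at 1.41 and 0.78, below 2-fold in KA+NAP minus NAP. Plat (tissue plasminogen activator) was at 367 with PBS, 385 with NAP, 850 with KA and 642 with KA+NAP, with differences of 1.19 and 0.72. Plaur, the urokinase receptor, was dim, between 2 and 40, at 1.64 and 1.54, and its second probe set lay between 1 and 6. Dysf (dysferlin, a membrane repair protein that binds annexins) was at 1.17 and 1.71 with intensities between 13 and 65, and its second, dimmer probe set was at 0.61 and 0, with 22 on the NAP, KA and KA+NAP arrays. Myh9, the myosin heavy chain bound by S100A4, was at 0.89 and 1.37, and the scavenger receptor gene Cd36, between 6 and 51, at 0.64 and 1.23. Among the receptors for released S100 proteins, Tlr4 had an intensity of 29 with PBS, 46 with NAP, 53 with KA and 63 with KA+NAP, and Ager (RAGE) lay between 5 and 23, both below the filter. Cacybp and Sugt1, which encode S100A6-binding proteins, stayed within 2-fold (0.09 and 0.29, and 0.14 and 0.44). The others on the array were Bsg, at -0.36 and -0.17, Hltf, at -0.18 and -0.04, and Plg, between 8 and 25 on every array.

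Genes of other families with the most similar profile were found by the root-mean-square distance between log2 profiles over the 4 arrays, each centred on its own mean. The 5 nearest of 9479 genes to the mean profile of the 10 genes were Pvt1 (distance 0.04), a long non-coding RNA, Clec12a (0.05), a myeloid lectin, Kdr (0.06), the endothelial VEGF receptor, Pbk (0.08), a mitotic kinase, and Ptprc (0.08), the pan-leukocyte gene CD45. Ptprc, for instance, had an intensity of 83 with PBS, 146 with NAP, 237 with KA and 480 with KA+NAP. Nearest to the mean of S100a8 and S100a9 were Fn1 (0.12), which encodes fibronectin, Top2a (0.16), which encodes a topoisomerase of dividing cells, and the myeloid genes Igsf6 (0.16), Myo1f (0.16) and Fcgr2b (0.17). Fn1 was at 290 with PBS, 683 with NAP, 994 with KA and 2274 with KA+NAP. Among the 10 genes themselves, S100a10 lay farthest from their mean profile (0.72), followed by Anxa3 (0.65), Anxa5 (0.59) and S100a9 (0.51), and the other 6 lay between 0.13 and 0.23. These distances rest on 4 arrays. Pvt1 (34 with PBS and 58 with NAP), Clec12a (30 and 54) and Pbk (22 and 44) passed the filter only through their KA arrays. So did Top2a (31 and 70), Igsf6 (11 and 59) and Myo1f (25 and 74), and S100a8 and S100a9 themselves.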

How the data were processed

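RNA of 1 sample per group (PBS, KA, KA+NAP and NAP) was measured on 4 Affymetrix arrays. Per the labels' protocols, a 2-cycle amplification turned 500 ng of total RNA into biotin-labelled cRNA, which favours 3′ ends. Per the submitters' processing notes, the authors computed intensities with MAS5, whose version is not given in the sources used here, and detection calls were not used. Deposited intensities are whole numbers on a linear scale for 31099 probe sets. Without the highest and lowest 2% of values each array had a mean of 250.0, which shows that the authors scaled the arrays to one level. Median intensities lay between 58 and 65. The number of arrays, 1 per group, limits the precision.

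A single gene symbol was annotated to 20826 probe sets and several to 436, which were left unnamed, as were 9780 without an entry. Symbols were updated through Entrez identifiers to GRCr8, where 20758 matched. No genome build is named for the table, and coordinates are RefSeq's. Each gene took its brightest probe set. Analysis used log2(intensity + 10) in Python 3.11.15 with pandas 2.3.3 and numpy 2.4.6, and the code was tested on simulated data. Genes with a mean intensity above 62.75 entered the shares over all genes (9489 of 14217). All 10 described genes were counted, and all passed. No test, p-value or standard error is given. Alternatives were pseudocounts of 1 and 50, the mean over probe sets, centring on array medians, other filters and the other array without KA as reference. The genes and lists were chosen with earlier results of these data known. Text names all 10 genes, listed family and partner genes at 2-fold in either KA comparison, marker genes and the 5 nearest profiles. Other family and partner genes named, the order of arrays and the motifs were chosen after their values were seen.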

Additional observations from a re-analysis of the deposited data

How the results depend on the processing

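Directions did not change under any alternative for the differences that reached 2-fold. In KA minus PBS, the count of 8 genes at least 2-fold higher became 6 with a pseudocount of 50 (S100a6 at 0.79 and S100a8 at 0.72), 7 with the mean over probe sets, 5 of 7 with the filter at the 75th percentile or on the PBS and NAP arrays (against 3.68% of all genes with the latter), and 3 with the NAP array as reference, where the median was 0.86. In KA+NAP minus NAP it became 7 with the mean over probe sets, 5 of 7 with either filter (4.16% of all genes with the latter) and 9 with the PBS array as reference. The count in both KA comparisons became 6 with a pseudocount of 50, 7 with the mean over probe sets, 5 of 7 with either filter and 3 with the references exchanged. In KA+NAP minus KA, the count of 5 became 3 with a pseudocount of 50 (S100a8 at 0.81 and Anxa1 at 0.996) and 2 of 7 with either filter (1.22% with the latter). In NAP minus PBS, the count of 2 became 3 with a pseudocount of 1, 0 with a pseudocount of 50 (S100a9 at 0.79 and Anxa2 at 0.93) and 1 with the mean over probe sets, centred arrays or either filter. Each filter left out 3 of the 10 genes. The mean over probe sets put Anxa2 at 0.85 and 0.43 in the KA comparisons, because it includes the probe set near 0. The order of arrays, counted after the data were seen, held in 9 of 10 genes with the mean over probe sets and in all genes left under the other settings. Centring moved the counts at 2-fold in no KA comparison. No paired analysis was possible because each group had 1 array, so no replicate could be left out either. Without detection calls, signal over background was not examined, and S100a8 and S100a9 on the PBS array (16 and 13) have differences whose size depends on the pseudocount.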
